A study of Homo sapiens with 6 samples.

Results

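A549 cells, an established human lung epithelial cancer line, were transfected with the pIRES-hrGFP-1a plasmid carrying FLAG-tagged TFAM, the mitochondrial transcription factor A (TFAM-OE), or with the empty plasmid (control), and the polyA RNA of 3 libraries per group was sequenced. Described here are the 10 genes of serine, one-carbon and proline synthesis named PHGDH, PSAT1, PSPH, SHMT1, SHMT2, MTHFD1, MTHFD1L, MTHFD2, PYCR1 and ALDH18A1, chosen by symbol from 29845 genes with a deposited read count. All 10 were found in both deposited tables and all 10 were among the 16555 genes kept by a filter on low counts. The transfection was transient, the line is a single one, and the libraries of a group are called biological replicates without a statement that they came from separate cultures, so the p-values measure the spread between these libraries, which may be technical. All RNA was bulk RNA, in which fewer expressing cells and less RNA per cell cannot be told apart.

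The libraries summed to between 26650854 and 37321956 reads, and each of the 10 genes held between 1230 and 10236 reads in every library. FPKM, a read count divided by transcript length and sequencing depth, allows levels of different genes to be compared. The epithelial keratins KRT7, KRT8 and KRT18 were abundant in every library, at 473 FPKM or more, whereas EPCAM and CDH1 did not exceed 0.470 and 1.48 FPKM. The leukocyte, fibroblast, endothelial and erythroid markers examined did not exceed 0.630 FPKM in any library. The TFAM gene itself had 12.36, 10.99 and 11.2 FPKM in the control libraries and 10.6, 11.9 and 13.6 FPKM in the libraries labelled TFAM-OE. These values overlapped, at a log2 ratio of TFAM-OE over control of 0.08 ± 0.096 (SE, edgeR adjusted p = 0.623 by Benjamini-Hochberg over all genes tested). With an offset for GC content in the fit, added after seeing the data, the log2 ratio of TFAM was 0.24 (edgeR adjusted p = 0.0793). A higher TFAM mRNA level was thus not detected in the libraries labelled TFAM-OE. The study reported successful TFAM overexpression from a western blot against the FLAG tag. The tagged protein was not analysed here.

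Serine is made from a glycolytic intermediate in 3 steps, by the dehydrogenase PHGDH, the aminotransferase PSAT1 and the phosphatase PSPH. Serine hydroxymethyltransferase then moves a carbon unit from serine to folate and leaves glycine, in the cytosol as SHMT1 and in the mitochondrion as SHMT2. The folate-bound unit is interconverted by MTHFD1 in the cytosol and by MTHFD2 and MTHFD1L in the mitochondrion, and feeds the synthesis of purines and thymidylate. Proline is made from glutamate by the synthase ALDH18A1 and the reductase PYCR1, both mitochondrial. Many of these genes are known targets of ATF4, a transcription factor of the integrated stress response that is translated when amino acids are short or mitochondria are impaired.

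Of the 10 genes, 5 rose past an adjusted p of 0.05, namely SHMT2, SHMT1, PHGDH, PYCR1 and PSAT1, against 3.48% of all 16555 genes tested that passed in this direction. None fell past this threshold by the edgeR quasi-likelihood F-test (0 lower also at an unadjusted p below 0.05, and 0 lower by DESeq2), against 4.81% of all genes. A further 4 genes passed an unadjusted p of 0.05 in the higher direction without passing after adjustment. Over these 10 genes the log2 ratio had a median of 0.40, and over all genes tested one of -0.01. DESeq2 placed 8 of the 10 past the threshold as higher and 0 as lower, against 5.63% and 6.67% of all genes, and edgeR on all genes with at least 1 read placed 6 as higher and 0 as lower, against 3.46% and 4.98%. On simulated counts, 12.9% of the calls of this last fit were false, and 1.02% of those of the reported fit. The reported fit recovered 6% of the genes simulated with a 1.3-fold change, 20% at 1.5-fold and 72% at 2-fold. The count of 5 went to 2 without control replicate 1, control replicate 2 or TFAM-OE replicate 2, to 7 without TFAM-OE replicate 3, and to 1 with the replicate number as a block in the fit. Over all genes, 576 of 16555 were higher in the reported fit. This number was 90 of 16838 without control replicate 1, 66 of 16859 without control replicate 2 and 89 of 16917 without TFAM-OE replicate 2. It was 1428 of 16941 without TFAM-OE replicate 3 and 74 of 16555 with the block. The summed FPKM of the 10 genes ran from 301 to 309 in the control and from 388.5 to 447 in TFAM-OE. In 9 of the 10 genes every TFAM-OE library had a higher FPKM than every control library, a separation found in this direction in 15.8% of all genes. None of the 10 reached the 2-fold change that the study required of its differentially expressed genes (0 by edgeR and 0 by each other tool run). Of all genes, 2.51% had both an edgeR adjusted p below 0.05 and a fold of at least 2 or at most 0.5.

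**Figure D1:**
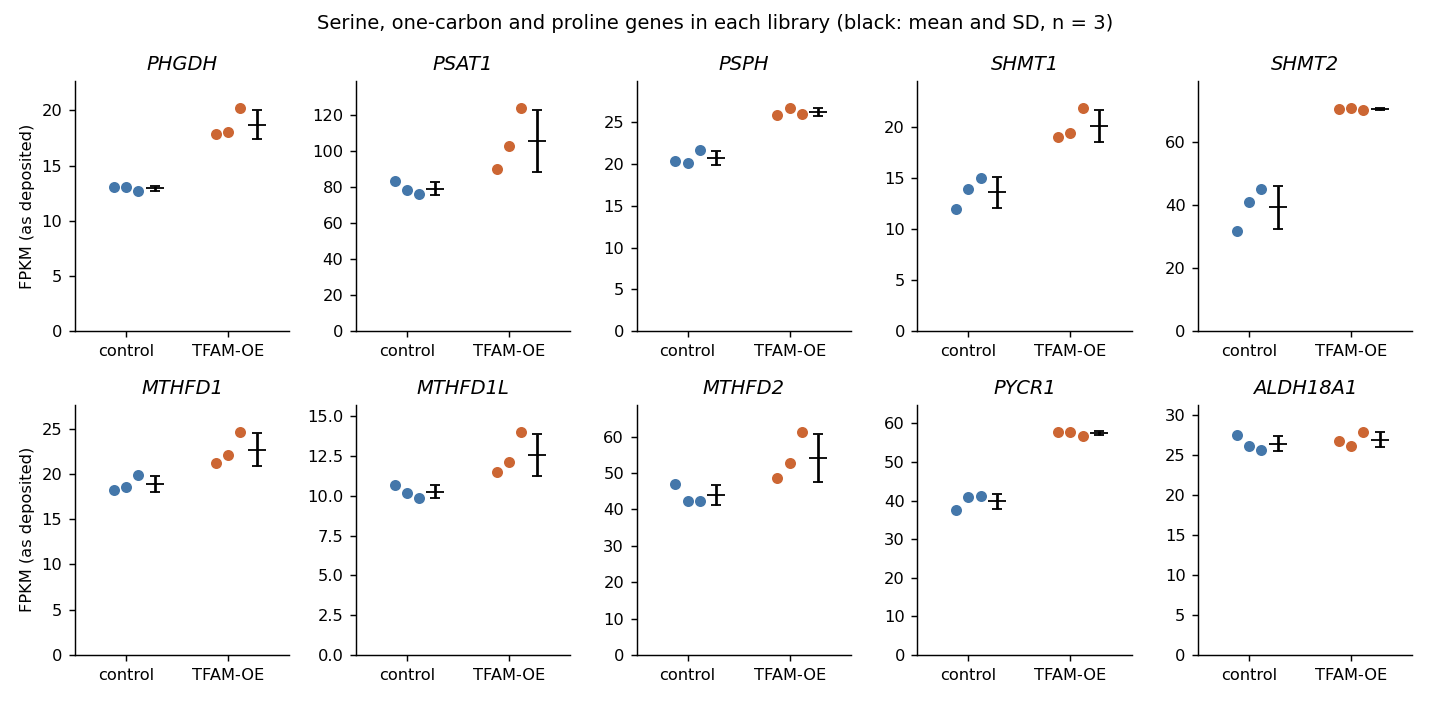
Deposited FPKM (vertical axes from 0) of the 10 genes in each library, with control in blue and TFAM-OE in orange and the mean ± SD of 3 libraries in black. The groups are apart in 9 genes and overlap in ALDH18A1.

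Promoter sequences were looked at because 9 of the 10 genes separated the groups in the same direction. The RefSeq promoter table (GRCh38.p14) held 7 of the 10 genes. PSPH, SHMT2 and PYCR1 were not among them. In the 250 bases before the start site, both strands were searched for CCAAT (the CCAAT box), CACGTG (the E-box bound by MYC and related factors), TGATGNAA (the C/EBP-ATF response element through which ATF4 acts) and TGACNNNGC (the antioxidant response element). The 7 genes have 10 promoter entries, 4 of them of MTHFD1L and partly overlapping. A CCAAT box was found in 8 of the 10 entries, from 6 genes, where 32% of all 35116 promoter entries hold one. The CCAAT boxes of the MTHFD1L entries lie at the same position, so this site is counted more than once. An E-box was found in 4 of the 10 entries, from MTHFD1, MTHFD1L and ALDH18A1, and in 6.34% of all entries. Those of MTHFD1L again share their position and are counted more than once. A C/EBP-ATF response element was found in 2 of the 10 entries, both of MTHFD1L and at the same position, and in 3.14% of all entries. No antioxidant response element was found in these entries, and 10.9% of all entries hold one. A match describes these letters only. The 150 bases before the start site are shown for PSAT1 and SHMT1, both past the threshold and both with repeated CCAAT boxes, in capitals (CCAAT or, on the other strand, ATTGG). MTHFD2, which did not pass, also had 2 CCAAT boxes in its 250 bases, and PHGDH, which passed, had 1. A link between CCAAT boxes and the change in level was not tested. The PSAT1 window, with 3 matches, is chr9:78296975-78297124 on the plus strand and lies outside annotated exons. The SHMT1 window, with 2 matches, is chr17:18363551-18363700 on the minus strand, and 13 of its bases lie in an annotated exon.
PSAT1: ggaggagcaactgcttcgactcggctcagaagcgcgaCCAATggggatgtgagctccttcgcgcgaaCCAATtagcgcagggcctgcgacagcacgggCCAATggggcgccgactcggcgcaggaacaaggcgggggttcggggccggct
SHMT1: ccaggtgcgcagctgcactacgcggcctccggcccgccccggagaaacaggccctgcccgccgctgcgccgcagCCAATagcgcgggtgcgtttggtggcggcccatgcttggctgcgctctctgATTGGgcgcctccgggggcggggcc

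The C/EBP-ATF response element of MTHFD1L, in capitals, is at chr6:150866357-150866364 on the plus strand, within the printed stretch chr6:150866347-150866374. It starts 129 or 90 bases before the start site in 2 of the 4 promoter entries of the gene, and is shown because it was the match to the ATF4-linked motif among the 7 genes, in a gene that had a log2 ratio of 0.31 and did not pass the test.
MTHFD1L: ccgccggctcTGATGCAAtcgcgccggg

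Among the serine synthesis enzymes, PHGDH, which commits the glycolytic intermediate to serine, had 13.04, 13.08 and 12.69 FPKM in the control libraries and 17.86, 18.03 and 20.22 FPKM in the TFAM-OE libraries. The control values were nearly equal and all lay below the lowest TFAM-OE value. PHGDH (ENSG00000092621.11; chromosome 1, 119648411 to 119744218, plus strand, GRCh38) had a fold change of 1.47 (95% interval 1.28 to 1.68, log2 ratio 0.55 ± 0.088 SE, edgeR adjusted p = 0.0063). Its call held with each of the 6 libraries left out in turn, at adjusted p-values up to 0.0486.

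PSAT1, the aminotransferase of the second step, was the most abundant of the 10 genes per transcript length. Its FPKM values were 82.99, 78.21 and 75.79 in the control and 89.96, 102.42 and 123.81 in TFAM-OE. TFAM-OE replicate 1 lay closest to the control and TFAM-OE replicate 3 highest. The fold change of PSAT1 (ENSG00000135069.13; chromosome 9, 78297125 to 78330093, plus strand) was 1.35 (95% interval 1.15 to 1.58, log2 ratio 0.43 ± 0.10 SE, edgeR adjusted p = 0.0308). This call was lost when any control library or TFAM-OE replicate 2 was left out, with adjusted p-values up to 0.134 and log2 ratios from 0.42 to 0.45, and when libraries were scaled by their size alone (edgeR adjusted p = 0.0653). The PSAT1 call was also lost with limma on log2 FPKM after adding 0.1 or 1 (adjusted p = 0.0606 and 0.0645). With the replicate number as a block its edgeR adjusted p was 0.137.

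PSPH, the phosphatase of the last step, had 20.4, 20.1 and 21.7 FPKM in the control and 25.84, 26.71 and 26 FPKM in TFAM-OE. The groups did not overlap, and the spread within TFAM-OE was small, 26.2 ± 0.463 FPKM (SD, n = 3). With a fold change of 1.28 and a 95% interval from 1.1 to 1.49, PSPH (ENSG00000146733.13; chromosome 7, 56011051 to 56051604, minus strand) lay just outside the threshold, at an adjusted p of 0.0501 by edgeR. Its adjusted p was 0.0205 by DESeq2 and 0.0459 when all genes with a read were tested.

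Both serine hydroxymethyltransferases rose. SHMT2, the mitochondrial enzyme, changed most of the 10 genes. It had 31.75, 40.89 and 45.05 FPKM in the control and 70.3, 70.7 and 69.9 FPKM in TFAM-OE. The control libraries were spread, with control replicate 1 lowest, whereas the TFAM-OE libraries were nearly equal. The fold change of SHMT2 (ENSG00000182199.10; chromosome 12, 57229573 to 57234935, plus strand) was 1.82 (95% interval 1.46 to 2.26, log2 ratio 0.86 ± 0.14 SE, edgeR adjusted p = 0.0068). It was the only one of the 10 genes past the threshold under all 19 alternative settings described in the closing section, and its log2 ratio was 0.72 without control replicate 1 and 0.99 without control replicate 3.

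SHMT1, the cytosolic enzyme, had 11.9, 13.9 and 15.0 FPKM in the control and 19.0, 19.4 and 21.8 FPKM in TFAM-OE. As in SHMT2, control replicate 1 was the lowest library. The fold change of SHMT1 (ENSG00000176974.17; chromosome 17, 18327860 to 18363563, minus strand) was 1.50 (95% interval 1.25 to 1.79, log2 ratio 0.58 ± 0.12 SE, edgeR adjusted p = 0.0172). Without control replicate 1, control replicate 2 or TFAM-OE replicate 2 the adjusted p of SHMT1 rose to as much as 0.0829. SHMT1 overlaps SMCR8 on the opposite strand, and the use of strand in counting is not given in the sources used here. SMCR8 held between 1148 and 2371 reads and had a log2 ratio of -0.52 (edgeR adjusted p = 0.0791), opposite in sign to SHMT1.

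The genes MTHFD2, MTHFD1L and MTHFD1 had smaller differences, and none of them passed the adjusted threshold. MTHFD2, the mitochondrial dehydrogenase and cyclohydrolase, had 47.0, 42.4 and 42.3 FPKM in the control and 48.5, 52.6 and 61.4 FPKM in TFAM-OE. The groups did not overlap, but control replicate 1 lay close to TFAM-OE replicate 1. MTHFD2 (ENSG00000065911.11; chromosome 2, 74186172 to 74217565, plus strand) had a log2 ratio of 0.32 (SE 0.093, edgeR adjusted p = 0.0602 and 0.0297 by DESeq2). MTHFD1L, the mitochondrial formate-producing synthetase, had 10.7, 10.2 and 9.87 FPKM in the control and 11.5, 12.2 and 14.0 FPKM in TFAM-OE. The groups did not overlap, and for MTHFD1L (ENSG00000120254.15; chromosome 6, 150865679 to 151101887, plus strand) the log2 ratio was 0.31 (SE 0.093, edgeR adjusted p = 0.0668 and 0.0390 by DESeq2). MTHFD1, the trifunctional cytosolic enzyme, had 18.2, 18.6 and 19.9 FPKM in the control and 21.2, 22.1 and 24.7 FPKM in TFAM-OE, again without overlap. MTHFD1 (ENSG00000100714.15; chromosome 14, 64388031 to 64463457, plus strand) had a log2 ratio of 0.28 ± 0.093 (SE), with adjusted p-values of 0.0920 from edgeR and 0.0763 from DESeq2. The pseudogenes MTHFD1P1 and MTHFD2P1 held at most 4 reads in a library. A gene on the strand opposite MTHFD2, ENSG00000264324, held between 836 and 1408 reads. Its log2 ratio was 0.34 (edgeR adjusted p = 0.0841), close to that of MTHFD2, and its part in the reads of MTHFD2 was not tested.

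Of the pair of proline synthesis genes, PYCR1 rose and ALDH18A1 did not pass the test, and the difference between them was not itself tested. PYCR1, the reductase of the last step, had 37.6, 40.8 and 41.1 FPKM in the control and 57.7, 57.9 and 56.8 FPKM in TFAM-OE. All TFAM-OE libraries stood far above all control libraries. The fold change of PYCR1 (ENSG00000183010.16; chromosome 17, 81932384 to 81942412, minus strand) was 1.47 (95% interval 1.26 to 1.71, log2 ratio 0.55 ± 0.098 SE, edgeR adjusted p = 0.0104). Without control replicate 1, control replicate 2 or TFAM-OE replicate 2, its adjusted p rose to as much as 0.0735. On the strand opposite PYCR1, ENSG00000263585 held between 68 and 146 reads. It had a log2 ratio of 0.56 (edgeR adjusted p = 0.0539), and its part in the reads of PYCR1 was not tested. ALDH18A1, the synthase that starts the pathway, had 27.5, 26.1 and 25.6 FPKM in the control and 26.7, 26.1 and 27.9 FPKM in TFAM-OE. These values overlapped, with equal values in the second library of each group. The log2 ratio of ALDH18A1 (ENSG00000059573.8; chromosome 10, 95605941 to 95656711, minus strand) was 0.05 (edgeR adjusted p = 0.754), and the 95% interval of its fold change, from 0.907 to 1.18, leaves out a change of the size seen for PYCR1.

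Because FPKM is per transcript length, the 10 genes could be ordered by their level. In the control, the mean FPKM rose from 10.3 for MTHFD1L, over 12.9 for PHGDH, 13.6 for SHMT1, 18.9 for MTHFD1, 20.7 for PSPH, 26.4 for ALDH18A1, 39.2 for SHMT2, 39.8 for PYCR1 and 43.9 for MTHFD2, to 79.0 for PSAT1. Among neighbours in this order, the libraries of PHGDH and SHMT1 overlapped, as did those of SHMT2 and PYCR1, and the range of SHMT2 also reached that of MTHFD2. In TFAM-OE, SHMT2 had a mean of 70.3 FPKM and stood second to PSAT1, above MTHFD2 at 54.2 and PYCR1 at 57.5 FPKM, with no overlap of its libraries with either.

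The balance between partner enzymes was followed as the ratio of their FPKM values within each library, and p-values were adjusted over the 5 pairs computed. The ratio of SHMT2 to SHMT1 was 2.67, 2.95 and 3.01 in the control and 3.71, 3.64 and 3.20 in TFAM-OE, so that all TFAM-OE libraries were higher. The exact permutation test, two-sided, gave p = 0.1, the smallest that 3 libraries against 3 allow, and 0.25 after adjustment. The ratio of MTHFD2 to MTHFD1 overlapped between the groups, at 2.33 ± 0.234 and 2.39 ± 0.0987 (SD, n = 3 each, exact permutation p = 0.7). So did the ratio of MTHFD1L to MTHFD1, at 0.543 ± 0.0461 and 0.554 ± 0.0134 (SD, n = 3 each, exact permutation p = 0.8), and that of PYCR1 to the cytosolic enzyme PYCR3, listed as PYCRL, at 3.02 ± 0.321 and 2.95 ± 0.232 (SD, n = 3 each, exact permutation p = 0.6).

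**Figure D2:**
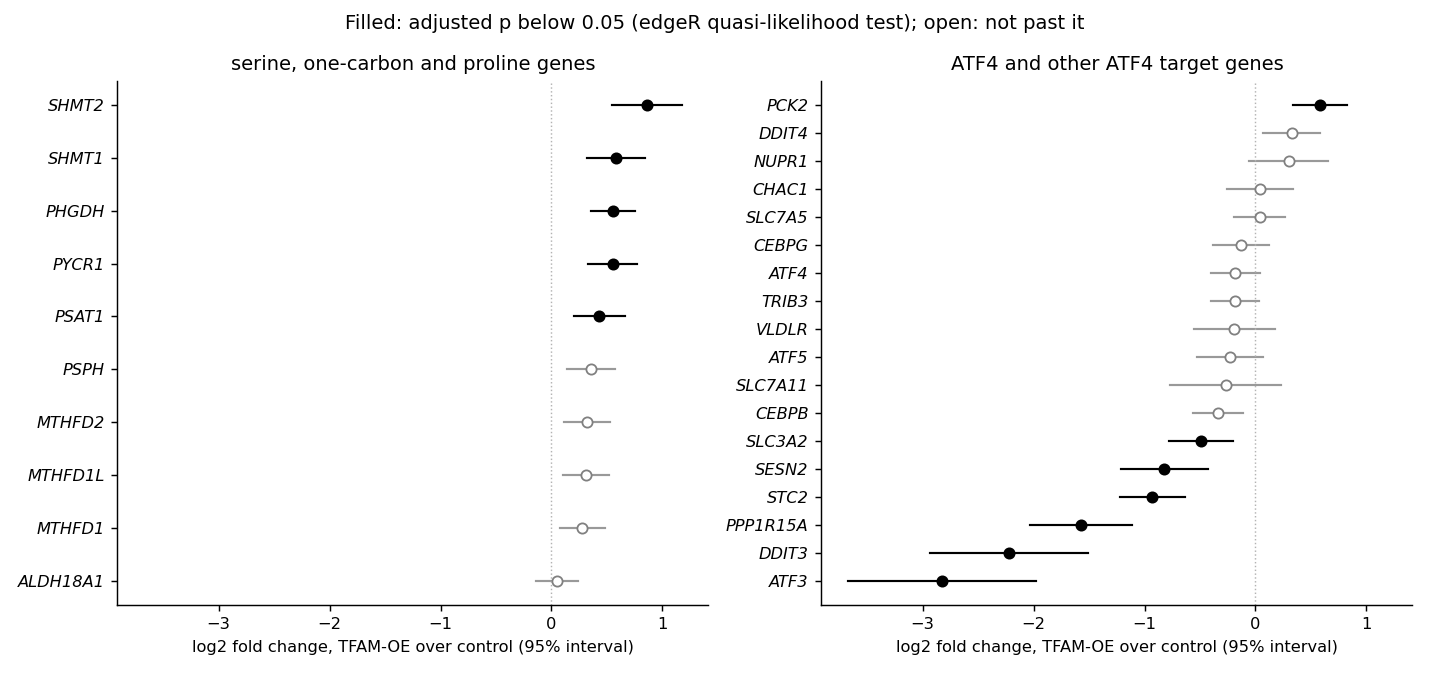
Log2 ratio of TFAM-OE over control (horizontal axes) with its 95% interval for the 10 genes (left) and for ATF4 and 17 other ATF4 targets (right). Filled points had an edgeR adjusted p below 0.05. The 95% intervals are those of the fit. On the left all points lie to the right of 0, and on the right 6 of the 7 filled points lie to the left of it. ASNS, another known ATF4 target, which rose, is not drawn.

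Other genes of the same pathways were counted in lists written from general knowledge, with earlier results of these data known. Of 15 rows of other folate enzymes and carriers, 2 rose and none fell past the adjusted threshold, against 3.48% and 4.81% of all genes. At an unadjusted p below 0.05, 0 of these rows fell (edgeR), and their median log2 ratio was 0.18. Among those that rose, TYMS, thymidylate synthase, went from 52.3, 54.8 and 63.5 FPKM to 76.6, 77.1 and 81.8 FPKM (log2 ratio 0.49, edgeR adjusted p = 0.0250). The call of TYMS was lost without control replicate 1 (edgeR adjusted p = 0.114), control replicate 2 or TFAM-OE replicate 2. MTHFD2L, the paralogue of MTHFD2, had a log2 ratio of 0.18 (edgeR adjusted p = 0.478), and the groups overlapped for the mitochondrial folate carrier SLC25A32 and for ALDH1L2, with log2 ratios of -0.03 and 0.41.

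Of 9 genes of glycine cleavage and serine transport, 2 rose and none fell, against 3.48% and 4.81% of all genes. At an unadjusted p below 0.05, 0 of the 9 fell (edgeR), and their median log2 ratio was 0.19. GCSH, the lipoyl carrier protein of the glycine cleavage system, rose from 14.67, 13.41 and 16.04 FPKM to 19.7, 20.4 and 21.6 FPKM (edgeR adjusted p = 0.0221), a call lost without control replicate 1, control replicate 2 or TFAM-OE replicate 2 (adjusted p up to 0.120 by edgeR). SFXN2, of the sideroflexin family of mitochondrial carriers, was low, at no more than 0.840 FPKM in any library, and rose by 0.79 on the log2 scale (edgeR adjusted p = 0.0488). This call of SFXN2 was lost without any one control library or TFAM-OE replicate 2 (adjusted p up to 0.195 by edgeR) and with libraries scaled by size alone (0.0659). SFXN1, the mitochondrial serine carrier, had a log2 ratio of 0.19 (edgeR adjusted p = 0.231).

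Of 15 other genes of proline, ornithine and glutamate metabolism, 4 rose and none fell, against 3.48% and 4.81% of all genes. At an unadjusted p below 0.05, 0 of the 15 fell (edgeR), and their median log2 ratio was 0.24. In 11 of them every TFAM-OE library was above every control library, a separation found in 15.8% of all genes. ASL, argininosuccinate lyase, went from 3.77, 3.75 and 4.72 FPKM to 8.42, 7.14 and 7.10 FPKM (log2 ratio 0.91, edgeR adjusted p = 0.0087). ASNS, asparagine synthetase and a known ATF4 target, went from 21.6, 19.4 and 19.6 FPKM to 24.8, 27.8 and 34.1 FPKM (log2 ratio 0.53, edgeR adjusted p = 0.0162). GPT2, the mitochondrial alanine aminotransferase, and PYCRL had log2 ratios of 0.56 and 0.58 (edgeR adjusted p = 0.0196 and 0.0419). The calls of ASNS, GPT2 and PYCRL were lost without control replicate 1, control replicate 2 or TFAM-OE replicate 2, with adjusted p-values by edgeR up to 0.0942, 0.112 and 0.162, and that of ASL without control replicate 1 or 2, up to 0.0643. Of the enzymes that degrade proline, PRODH did not exceed 0.180 FPKM in any library, and ALDH4A1 had a log2 ratio of 0.38 (edgeR adjusted p = 0.198).

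ATF4 and 17 other genes known as its targets were counted as a list of their own. Of these 18 genes 6 fell and 1 rose past the adjusted threshold, against 4.81% and 3.48% of all genes, with a median log2 ratio of -0.21. ASNS, a known target that rose, was counted in the list above and is not among the 18. ATF4 mRNA had 182, 167 and 166 FPKM in the control and 155, 148 and 142 FPKM in TFAM-OE, a log2 ratio of -0.18 (SE 0.10, edgeR adjusted p = 0.292). The values of ATF4 did not overlap but their difference did not pass the test. DDIT3, a pro-apoptotic transcription factor of the stress response, fell from 51.7, 26.3 and 18.9 FPKM to 7.79, 6.82 and 5.43 FPKM (log2 ratio -2.22 ± 0.32 SE, edgeR adjusted p = 0.0037). ATF3, another stress-induced factor, fell from 29.0, 13.8 and 7.98 FPKM to 2.38, 2.37 and 2.18 FPKM (log2 ratio -2.83, edgeR adjusted p = 0.0028). In both genes control replicate 1 was highest, the library in which SHMT2 and SHMT1 were lowest, and the part of this library in those differences was not tested beyond leaving it out. PPP1R15A, which lets translation recover after stress, and the secreted stanniocalcin STC2 fell by 1.57 and 0.93 on the log2 scale. SESN2 and SLC3A2 also fell, but not past the threshold without control replicate 1, control replicate 2 or TFAM-OE replicate 2 (adjusted p up to 0.112 and 0.201 by edgeR). The gene that rose was PCK2, the mitochondrial phosphoenolpyruvate carboxykinase (log2 ratio 0.58, edgeR adjusted p = 0.0135, lost without control replicate 1 or TFAM-OE replicate 2 at up to 0.0736), and these last 3 genes were named after their values were seen.

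The 10 genes were also set against the GC content of their longest transcripts, since fold changes followed GC content across all genes. The median log2 ratio was -0.13 for genes of up to 40% GC and 0.12 for genes above 60% GC. The 10 genes spanned 42.2% (MTHFD2) to 63.1% (PYCR1), around a median of 48.9% for all genes tested. With an offset for GC content in the fit, which was chosen after the data were seen, 8 of the 10 genes passed in the higher direction, against 4.6% of all genes, and 0 in the lower direction, against 5.9%. The log2 ratio of PYCR1 went from 0.55 to 0.43, that of PSAT1 from 0.43 to 0.51 and that of MTHFD2 from 0.32 to 0.40, whereas SHMT2 and PHGDH were at 0.81 and 0.54.

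**Figure D3:**
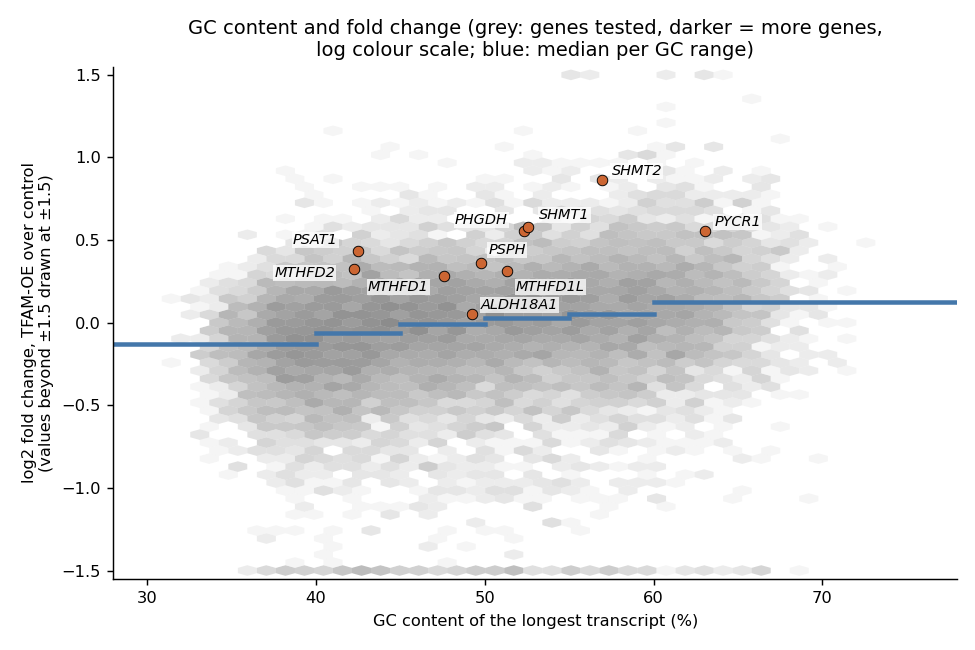
GC content of the longest transcript (horizontal axis, %) against the log2 ratio (vertical axis) for the 16342 genes tested that have a GC value (grey) and the 10 genes (orange), with the median per GC range in blue. The blue medians climb from -0.13 to 0.12, and all 10 orange points lie above the median of their range, ALDH18A1 closest to it. Values beyond ±1.5 are drawn at ±1.5.

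**Figure D4:**
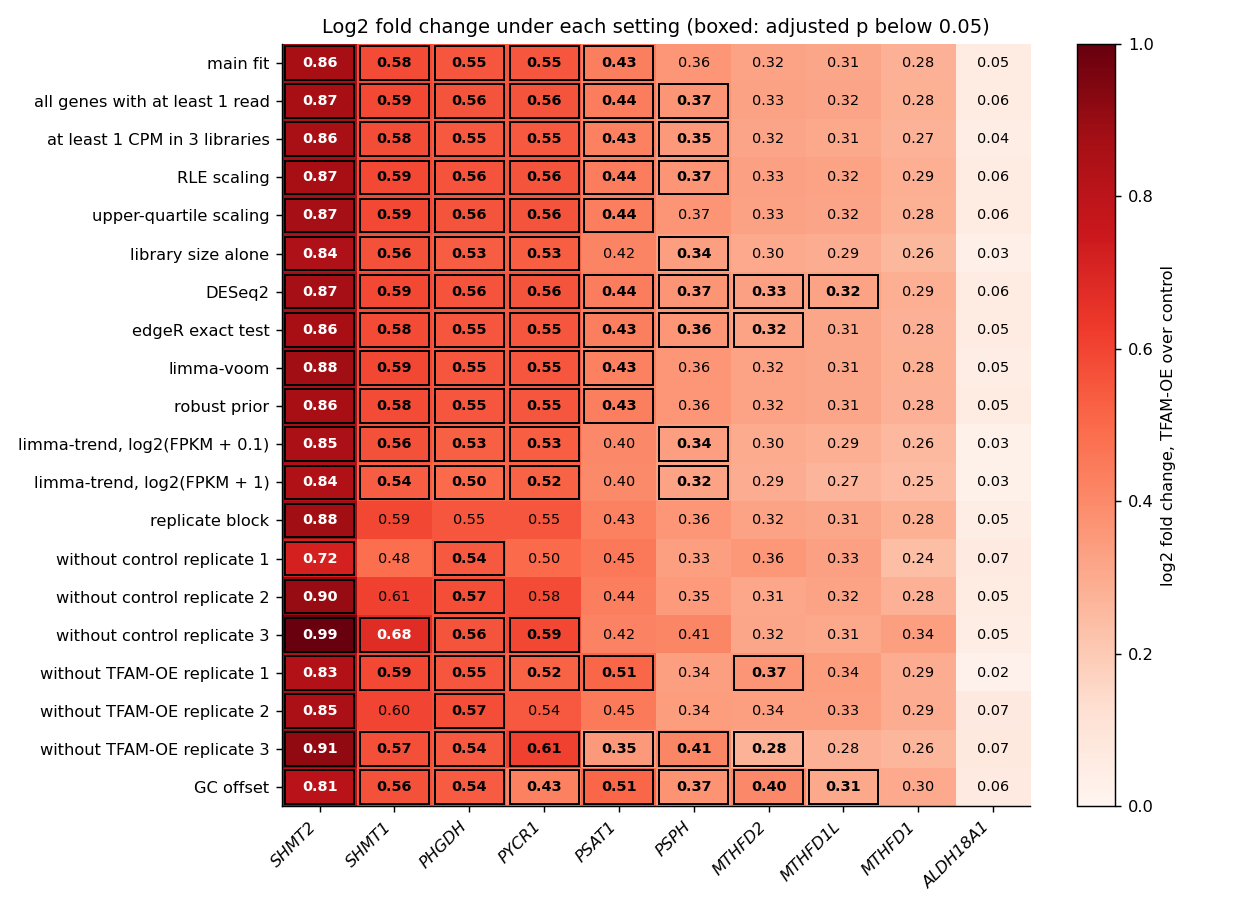
Log2 ratio of TFAM-OE over control of the 10 genes (columns) in the main fit and under each alternative setting (rows). Boxes mark an adjusted p below 0.05. Every value is above 0, and the boxes run through all settings for SHMT2 and are absent for MTHFD1 and ALDH18A1.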

How the data were processed

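PolyA RNA was sequenced from 6 A549 libraries, 3 per group as GEO's labels give them. The authors trimmed reads with the FASTX-Toolkit, aligned them to GRCh38 with TopHat2 and deposited a raw read count of uniquely mapped reads and an FPKM value with 2 decimals per gene and library. The submitters' processing notes also list bcl2fastq and edgeR. The library kit marks strand. For the counting, the program, the annotation and whether strand was used: not given in the sources used here. Unused value columns numbered 0.

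Counts were tested in R (4.3.3) with edgeR's (4.0.16) quasi-likelihood test after filterByExpr and TMM normalization. Tests were two-sided, and p-values were adjusted by Benjamini-Hochberg over all 16555 genes kept. With every gene kept, the prior degrees of freedom of the spread were infinite, so the filter was used for the reported values. Ratios and folds are TFAM-OE over control. FPKM values were used as deposited for levels, ratios and overlap. Coordinates, GC content and length come from GENCODE release 44, which held 97.2% of gene identifiers. Ratios were compared with exact permutation tests in Python (3.11.15) with scipy (1.17.1). Alternatives used DESeq2 (1.42.0) and limma (3.58.1), and the fits were tested on simulated data. The GC offset used a lowess span of 0.3.

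The members and lists were chosen with earlier results of these data known. Named were all members, TFAM, up to 4 genes per list with the smallest p-values among those that passed, and a preset set of pathway genes. Some items that this rule names, and 1 of the 5 enzyme pairs, are not reported here.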

Additional observations from a re-analysis of the deposited data

How the results depend on the processing

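Of the 10 genes, 5 were higher past the adjusted p in the reported fit, 8 with DESeq2, 8 with the GC offset (chosen after seeing the data), and between 5 and 7 with the other filters, scalings and tests of all 6 libraries. With a library left out the count ran from 2 to 7, being 2 without control replicate 1, control replicate 2 or TFAM-OE replicate 2 and 7 without TFAM-OE replicate 3. SHMT2 and PHGDH passed with each library left out. The replicate numbers did not pair the samples (correlations of same-numbered deviations of -0.225, 0.0077 and -0.266), and no library correlated best with its own number. The correlation was 0.243 for control replicate 1 with TFAM-OE replicate 3, and 0.252 for control replicate 3 with TFAM-OE replicate 1. A fit with the replicate number as a block left 1 of the 10 genes, SHMT2 (adjusted p = 0.0452 by edgeR). No gene of the 10 fell or reached 2-fold in any setting run (0 by edgeR, DESeq2 and limma), and their median log2 ratio stayed between 0.36 and 0.44. Over all genes, 576 were higher and 796 lower in the reported fit, 74 and 285 with the block, 1034 and 1485 with all genes tested, 932 and 1105 with DESeq2, 980 and 1236 with the exact test of edgeR, and from 66 and 240 without control replicate 2 to 1428 and 1786 without TFAM-OE replicate 3. The cause of these shifts was not tested.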

Other observations

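Pathways that take up one-carbon units were also counted. Of 12 genes of purine synthesis, none passed the adjusted p in either direction by edgeR (0 higher and 0 lower, with 3 higher and 0 lower at an unadjusted p below 0.05), 1 was higher with all genes tested and 2 were higher with the GC offset. Their median log2 ratio was 0.17, and 5 of the 12 had every TFAM-OE library above every control library, against 15.8% of all genes. Past the adjusted p, 3.48% of all genes were higher and 4.81% lower. The higher share was 3.46% with all genes tested and 4.6% with the GC offset. Of 5 genes of the methionine cycle and transsulfuration, 1 rose, CBS, cystathionine beta-synthase, from 0.450, 0.520 and 0.710 FPKM to 0.760, 1.17 and 1.34 FPKM (log2 ratio 0.96, edgeR adjusted p = 0.0441, or 0.0523 with the GC offset), a call also lost without control replicate 1, control replicate 2 or TFAM-OE replicate 2 (adjusted p up to 0.184 by edgeR) and with library size alone (0.0649). CBS has 2 rows in the deposited tables, and the counts are of uniquely mapped reads. Reads that match both near-identical copies may therefore be missing, and the value of CBS is uncertain.

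Of 10 regulators of the pathway, 1 rose and 2 fell, against 3.48% and 4.81% of all genes. SREBF1, a transcription factor of lipid synthesis, rose from 13.5, 15.6 and 15.4 FPKM to 20.9, 23.9 and 29.3 FPKM (log2 ratio 0.75, edgeR adjusted p = 0.0062). EIF2AK2, the kinase PKR that senses double-stranded RNA and phosphorylates eIF2 alpha, fell from 16.6, 18.3 and 15.9 FPKM to 6.70, 8.16 and 9.19 FPKM (log2 ratio -1.06, edgeR adjusted p = 5.0e-04). NFE2L2, the oxidative stress factor NRF2, fell from 18.7, 14.9 and 13.4 FPKM to 9.49, 10.5 and 11.4 FPKM (log2 ratio -0.56, edgeR adjusted p = 0.0208), a call lost without control replicate 1, control replicate 2 or TFAM-OE replicate 2 (adjusted p up to 0.104 by edgeR). The groups did not overlap in these 3 genes. Of all genes, 15.8% had every TFAM-OE library above every control library, and the share in the lower direction was not computed.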
